A study of Mus musculus with 12 samples.

Results

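Krüppel-like factors are zinc-finger transcription factors, and the 7 described here (Klf2, Klf3, Klf4, Klf6, Klf7, Klf10 and Klf13) were taken from the 55335 genes of the count table by gene name. All 7 passed the filter on low counts, which left 15702 genes for testing. KLF2 and its relatives govern quiescence and trafficking of lymphocytes. The rule itself uses no measured value, but the family was picked with earlier results of these data known. RNA-seq libraries were made from splenic CD8 T cells of OT-I mice, a transgenic line with 1 T cell receptor, specific for an ovalbumin peptide. Every culture was transduced with a retrovirus, which either encoded Batf3 (Batf3 vector) or was empty (control vector), and transduced cells were sorted. They were then kept for 6 h either on plates coated with 1 µg/ml of anti-CD3e and 1 µg/ml of anti-CD28 (stimulated) or in IL-15 at 100 ng/ml (non-stimulated). The 4 groups were therefore Batf3 stimulated, control stimulated, Batf3 non-stimulated and control non-stimulated cells, with 3 libraries each. The labels name IL-15 for the non-stimulated cultures alone, so the antibodies and the loss of IL-15 cannot be told apart as far as the labels say. The labels give neither the age nor the number of the mice, and they call the replicates technical. All SDs, SEs and p-values below thus describe the spread between technical libraries, not between mice or transductions.

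All Krüppel-like factors share 3 C-terminal zinc fingers that bind GC-rich and CACCC elements, and they differ in the N-terminal part, which recruits activators or repressors. KLF2 is highest in naive and resting memory T cells, where it activates the gene of the egress receptor S1PR1, and signals from the T cell receptor silence it. KLF4 restrains proliferation of CD8 T cells, and its gene is a target of ELF4. KLF3 is a repressor that works through CtBP, KLF10 (also called TIEG1) is induced by TGF-beta and restrains T cell activation, and KLF13 was described as a late activator of the chemokine gene Ccl5 in T cells. KLF6 is broadly expressed and quickly induced by many stimuli, and KLF7 is best known from neurons. BATF3, the product of the vector, is an AP-1 family factor with a basic leucine zipper.

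Total counts were 14211564 to 14468231 per library, and a member had between 49 and 4390 counts in a library. Levels are CPM (counts scaled to a common library size, here with TMM factors), given as the mean ± SD of 3 libraries. As a check of the labels, Batf3 averaged 427 ± 11.9 CPM in Batf3 stimulated cells and 18.4 ± 0.735 CPM in control stimulated cells. It averaged 470.4 ± 3.68 CPM in Batf3 non-stimulated cells and 6.77 ± 0.833 CPM in control non-stimulated cells. The summed level of 8 markers of CD8 T cells lay between 1850 and 2850 CPM in every library. Markers of other cells were low, but not all absent. Cd4 stayed at 0.668 CPM or below. The summed level in a library was 2.44 to 7.31 CPM for 6 B cell markers, 1.66 to 10.1 CPM for 6 myeloid markers, 15.9 to 23.0 CPM for 5 dendritic cell markers and 1.37 to 6.22 CPM for 6 erythroid and platelet markers. For 4 NK cell markers it was 39.0 to 337 CPM, nearly all of it Eomes, which CD8 T cells also express, and 0.595 to 4.19 CPM without Eomes. Ms4a1 (B cells), Lyz2 (myeloid cells), Siglech (plasmacytoid dendritic cells) and Ncr1 (NK cells) had no counts in any library. In the same lists, the highest group mean was 4.48 CPM for Cd79b, 5.76 CPM for Mpo, 3.03 CPM for Klrb1c, 11.1 CPM for Xcr1 and 16.1 CPM for Zbtb46, and each of these 5 was called in 2 or more of the comparisons below. The part of such transcripts in the levels of the members was not tested.

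Stimulation lowered Klf2, Klf3 and Klf13 with both vectors, Klf2 most, while Klf4 was not called with either vector. The Batf3 vector raised Klf2, Klf4, Klf10 and Klf13 in stimulated cells, and it lowered Klf3 and Klf7 there. It raised 6 of the 7 genes, all but Klf10, in non-stimulated cells. A gene was called, here and below, at an adjusted p under 0.05 in edgeR's quasi-likelihood (QL) test with Benjamini-Hochberg (BH) adjustment over all 15702 genes. The comparisons share libraries, since each group enters 2 of the 4.

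**Figure D1:**
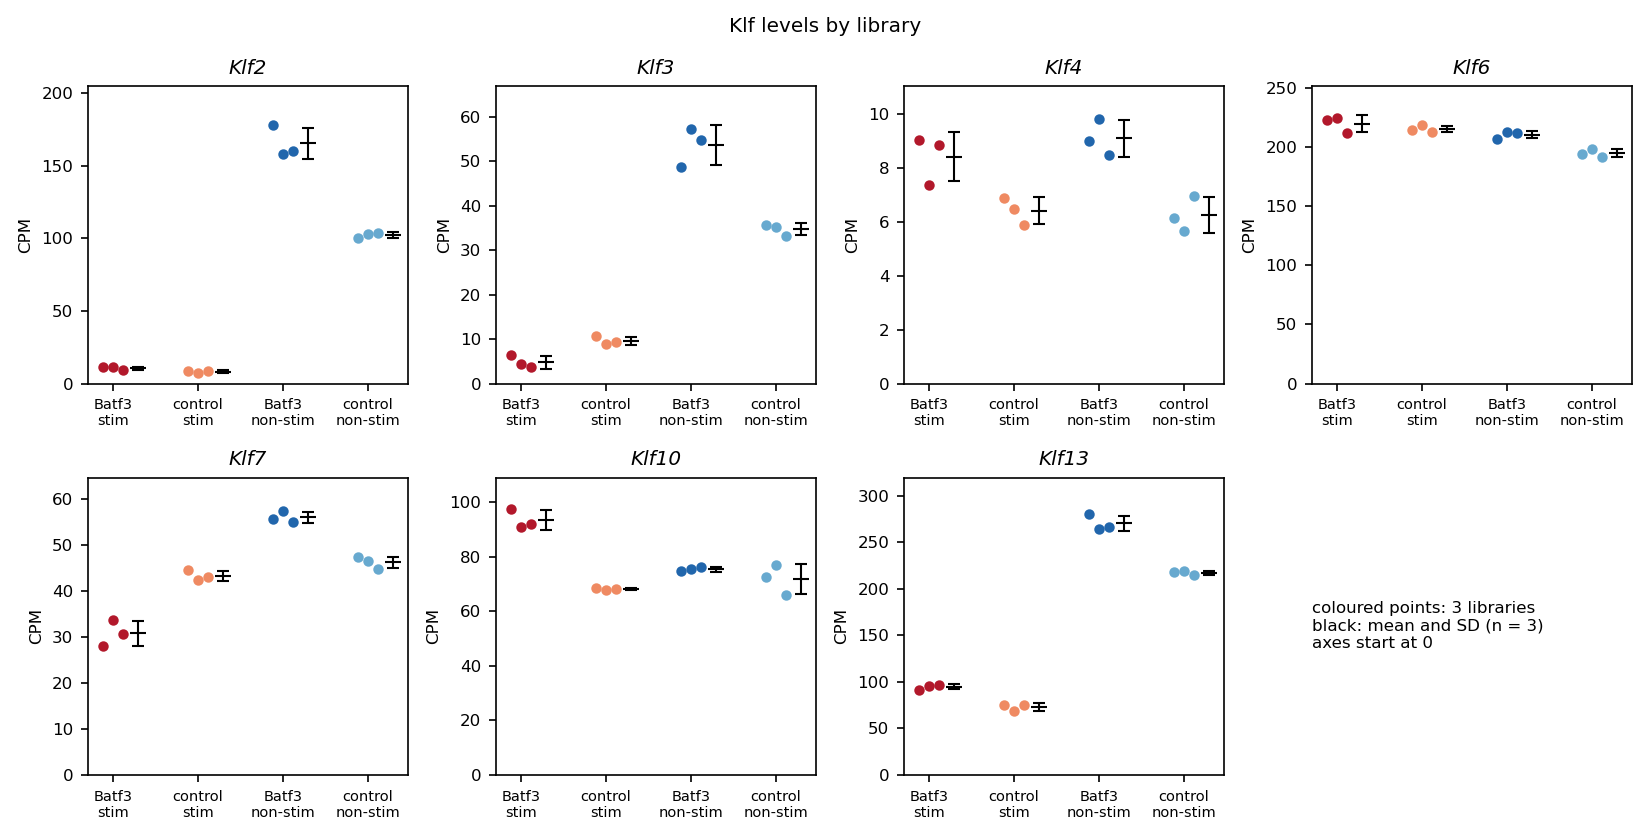
Level of each Krüppel-like factor gene in CPM (vertical axes, from 0) in the 3 libraries of each group (points), with the mean and SD in black. Klf2 lies between 7.01 and 11.2 CPM in the 6 stimulated libraries, against 99.8 to 178 CPM in the 6 non-stimulated libraries, whereas Klf6 lies between 192 and 225 CPM in all 12.

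Of the 7 members, 1 was called higher and 4 were called lower in stimulated than in non-stimulated cells with the Batf3 vector. Among all tested genes 41.2% were called higher and 41.4% lower in that comparison, so a call by itself does not set the family apart there. With the control vector 1 member was called higher and 3 lower, against 39.6% and 40.7% of all genes. The median log2 change of the members was -0.86 with the Batf3 vector and -0.09 with the control vector, beside 0.01 and -0.01 for all genes. With library sizes alone in place of TMM factors, 0 members were called higher and 6 lower with the Batf3 vector, and 0 higher and 5 lower with the control vector. Without Batf3 stimulated replicate 3, 2 members were called higher on stimulation with the Batf3 vector.

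Under the Batf3 vector 4 members were called higher and 2 lower in stimulated cells, where 14.8% of all genes were called higher and 14.6% lower. The members had a median log2 change of 0.38, beside 0.00 for all genes. Without control stimulated replicate 2, 2 members rather than 4 were called higher there. In non-stimulated cells 6 were called higher and 0 lower, against 16.3% and 23.0% of all genes, with a median of 0.31 beside -0.02. Of the genes called for the vector, 50.3% were higher in stimulated and 41.5% in non-stimulated cells, and these shares were 65.6% and 60.1% with library sizes alone. The effect of the vector differed between the cultures for 4 members. The test of that difference (the log2 effect of Batf3 in stimulated cells minus that in non-stimulated cells) was positive for 1 and negative for 3, whereas 14.6% of all genes were positive and 6.08% negative.

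Klf2 (ENSMUSG00000055148, chromosome 8, 72319033 to 72321656, plus strand, GRCm38) was the member that stimulation lowered most. Its level in the 3 libraries was 11.1, 11.2 and 9.44 CPM in Batf3 stimulated cells and 8.60, 7.01 and 8.83 CPM in control stimulated cells. It was 178, 158 and 160.1 CPM in Batf3 non-stimulated cells, against 99.8, 102.6 and 103.8 CPM in control non-stimulated cells. No library of one group overlapped with those of another, and the order of the groups ran from Batf3 non-stimulated through control non-stimulated and Batf3 stimulated to control stimulated cells. Stimulated cells had 15.6-fold less Klf2 RNA than non-stimulated cells with the Batf3 vector (log2 change -3.97 ± 0.08 SE, QL test, BH-adjusted p = 1.26e-53). With the control vector they had 12.5-fold less (-3.65 ± 0.09, QL test, BH-adjusted p = 8.35e-49). In bulk RNA, fewer cells that express a gene and less RNA per cell cannot be told apart, here or for any gene below.

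The Batf3 vector raised Klf2 in both cultures. The log2 change was 0.38 ± 0.11 in stimulated cells (QL test, BH-adjusted p = 0.00567) and 0.70 ± 0.04 in non-stimulated cells (QL test, BH-adjusted p = 3.43e-21). Mean levels were 10.6 ± 0.985 and 8.15 ± 0.992 CPM in Batf3 and control stimulated cells, and 165 ± 10.7 and 102 ± 2.02 CPM in Batf3 and control non-stimulated cells. On the CPM scale, which is relative to the library, the level in stimulated cells with the Batf3 vector thus remained far under that of either non-stimulated group. The call for Klf2 in stimulated cells was lost without control stimulated replicate 2 (0.27, QL test, BH-adjusted p = 0.091). The difference between the vector's effects in the 2 cultures was -0.32 ± 0.12 (QL test, BH-adjusted p = 0.0445), and this call for Klf2 was lost without any one of 6 libraries (-0.32 to -0.24, BH-adjusted p of 0.0536 to 0.172). These were control non-stimulated replicates 1 and 2, control stimulated replicates 1 and 3, Batf3 non-stimulated replicate 1 and Batf3 stimulated replicate 3.

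Klf3 (ENSMUSG00000029178, chromosome 5, 64803388 to 64832901, plus strand) encodes the CtBP-binding repressor of the family, and its response to the vector turned with the culture. It had 6.40, 4.38 and 3.61 CPM in Batf3 stimulated cells and 10.7, 8.84 and 9.29 CPM in control stimulated cells. In non-stimulated cells it had 48.6, 57.3 and 54.8 CPM with the Batf3 vector, against 35.7, 35.2 and 33.3 CPM with the control vector. The 3 Batf3 libraries lay below the 3 control libraries in stimulated cells and above them in non-stimulated cells.

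The vector changed Klf3 by -1.0 ± 0.15 on the log2 scale in stimulated cells (QL test, BH-adjusted p = 1.5e-07) and by 0.63 ± 0.07 in non-stimulated cells (QL test, BH-adjusted p = 9.22e-11). The difference between the 2 effects was -1.63 ± 0.16 (QL test, BH-adjusted p = 1.14e-11), which ranked 153 from the lowest among the 15702 genes. Seen from stimulation, Klf3 was 11.2-fold lower in stimulated than in non-stimulated cells with the Batf3 vector (-3.48 ± 0.13, QL test, BH-adjusted p = 3.32e-34). With the control vector it was 3.61-fold lower (-1.85 ± 0.10, QL test, BH-adjusted p = 1.21e-23). Klf3 shares 404 exonic bases with Gm20033 on the opposite strand, but that gene had 1 to 10 counts in a library.

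Klf13 (ENSMUSG00000052040, chromosome 7, 63886351 to 63938915, minus strand) encodes a factor with a reported role in the late expression of Ccl5. It had 91.5, 95.8 and 96.6 CPM in Batf3 stimulated cells and 74.8, 68.2 and 75.6 CPM in control stimulated cells. In non-stimulated cells the values were 279.9, 265 and 266 CPM with the Batf3 vector, against 218, 219 and 215 CPM with the control vector. The 4 groups did not overlap and stood in the same order as for Klf2.

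Stimulation lowered Klf13 with both vectors, 2.85-fold with the Batf3 vector (-1.51 ± 0.04, QL test, BH-adjusted p = 5.72e-44) and 2.98-fold with the control vector (-1.58 ± 0.04, QL test, BH-adjusted p = 1.25e-43). The Batf3 vector raised Klf13 by 0.38 ± 0.05 in stimulated cells (QL test, BH-adjusted p = 4.29e-11) and by 0.31 ± 0.04 in non-stimulated cells (QL test, BH-adjusted p = 4.61e-12). The difference between these effects, 0.06 ± 0.06, was not called (QL test, BH-adjusted p = 0.472), and it was -0.02 for Klf13 without control stimulated replicate 2.

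The sequences upstream of these 3 genes are shown because they are the members that stimulation lowered with both vectors. They are RefSeq promoter sequences (GRCm38.p6), trimmed to the bases before the first annotated start, and lie at chr8:72318812-72319032 on the plus strand (Klf2), chr5:64803271-64803387 on the plus strand (Klf3) and chr7:63938916-63939165 on the minus strand (Klf13). Capitals mark matches on either strand to the core of a MEF2 site (CTA and TAG with any 4 bases between) and to the CACCC element to which Krüppel-like factors themselves bind.
Klf2: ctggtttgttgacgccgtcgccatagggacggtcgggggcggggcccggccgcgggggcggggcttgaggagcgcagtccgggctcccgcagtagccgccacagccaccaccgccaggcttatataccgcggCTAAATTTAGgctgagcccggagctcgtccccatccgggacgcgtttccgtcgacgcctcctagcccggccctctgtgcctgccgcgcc
Klf3: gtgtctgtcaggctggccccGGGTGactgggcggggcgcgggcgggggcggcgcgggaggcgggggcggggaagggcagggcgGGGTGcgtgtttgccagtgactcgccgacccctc
Klf13: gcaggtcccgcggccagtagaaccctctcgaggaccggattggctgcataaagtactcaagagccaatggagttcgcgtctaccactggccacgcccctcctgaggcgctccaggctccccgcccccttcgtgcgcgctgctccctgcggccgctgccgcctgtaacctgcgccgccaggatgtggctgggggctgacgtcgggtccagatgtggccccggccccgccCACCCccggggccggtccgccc
In the 250 bases before the RefSeq start, Klf2 alone of the 6 members with an entry (all but Klf10) held the MEF2 core, with its first base 118 bases before the start. MEF2 factors are targets of the kinase ERK5 (Mapk7), a pathway known to induce Klf2. Of 32851 promoters in the table, 3.20% held this core. CACCC was found in Klf2, Klf3, Klf7 and Klf13 and in 52.0% of all promoters, and the GC box GGGCGG in each of the 6 members and in 32.7% of all promoters. The members are GC-rich here (59.2 to 78.4% GC, against a median of 52.4%), which bears on such matches. The CACCC match of Klf2 and some of those of Klf3 lie downstream of the windows shown. The AP-1 core TGANTCA, the kind of site that BATF3 dimers bind, was in none of the 6 windows and in 6.75% of all promoters. Nor did any of the 6 hold the FOXO core GTAAACA, found in 3.17% of all promoters. These are matches of letters within short windows and describe no binding.

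**Figure D2:**
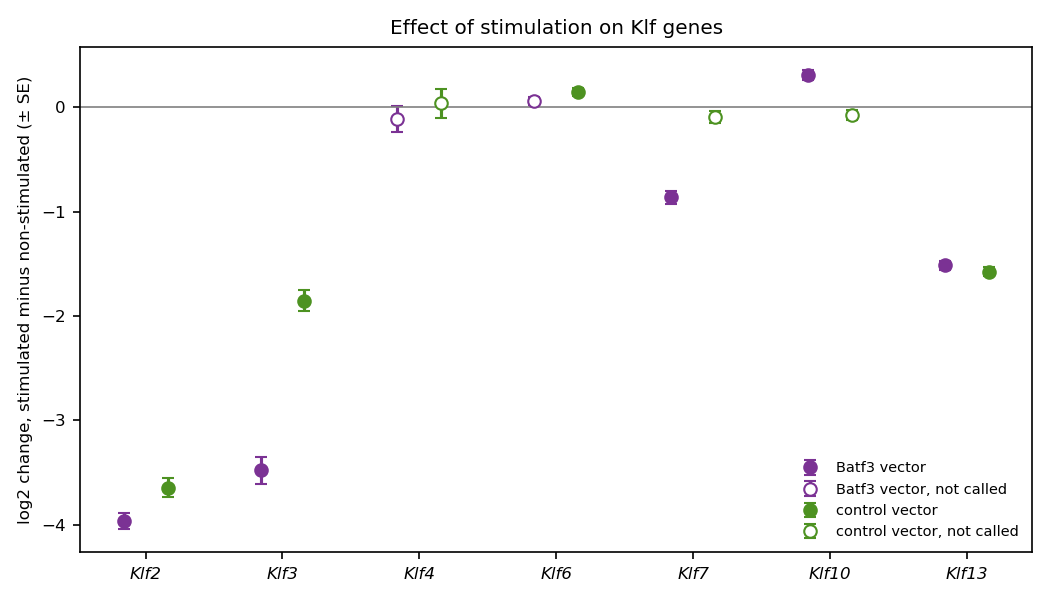
Log2 change between stimulated and non-stimulated cells (vertical axis) for each Krüppel-like factor gene with the Batf3 vector (purple) and the control vector (green), with SE as bars and open circles where the gene was not called. Klf2 lies lowest at -3.97 and -3.65, and the vectors lie farthest apart for Klf3 (-3.48 and -1.85) and Klf7 (-0.86 and -0.09).

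Klf7 (ENSMUSG00000025959, chromosome 1, 64029447 to 64122282, minus strand) also turned its response to the vector with the culture. Its level was 28.0, 33.6 and 30.7 CPM in Batf3 stimulated cells and 44.5, 42.4 and 43.0 CPM in control stimulated cells. It was 55.7, 57.3 and 55.1 CPM in Batf3 non-stimulated cells, against 47.3, 46.5 and 44.9 CPM in control non-stimulated cells. Batf3 stimulated cells held the lowest 3 libraries and Batf3 non-stimulated cells the highest 3, with the control groups close together between them and without overlap.

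The vector changed Klf7 by -0.49 ± 0.07 in stimulated cells (QL test, BH-adjusted p = 1.87e-09) and by 0.28 ± 0.06 in non-stimulated cells (QL test, BH-adjusted p = 2.06e-05). The difference between these effects was -0.77 ± 0.09 (QL test, BH-adjusted p = 2.4e-11). Stimulation lowered Klf7 with the Batf3 vector (-0.86 ± 0.06, QL test, BH-adjusted p = 6.99e-21). With the control vector the change was -0.09 ± 0.06 and was not called (QL test, BH-adjusted p = 0.125), although with library sizes alone in place of TMM factors it was -0.28 for Klf7 and was called (BH-adjusted p = 1.35e-05). Klf7 shares 3196 exonic bases with Gm26649 on the opposite strand, and the strand setting of the counting is not given in the sources used here.

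Klf10 (ENSMUSG00000037465, chromosome 15, 38291463 to 38300706, minus strand), the TGF-beta-inducible member, stood out in Batf3 stimulated cells. It had 97.5, 90.7 and 92.0 CPM there and 68.6, 67.9 and 68.2 CPM in control stimulated cells. In non-stimulated cells it had 74.5, 75.4 and 76.3 CPM with the Batf3 vector, against 72.3, 77.0 and 66.0 CPM with the control vector. The 3 Batf3 stimulated libraries lay above the other 9, and the control non-stimulated libraries overlapped with both remaining groups.

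The vector raised Klf10 by 0.45 ± 0.05 in stimulated cells (QL test, BH-adjusted p = 4.74e-12), while the change of 0.07 ± 0.05 in non-stimulated cells was not called (QL test, BH-adjusted p = 0.239). The difference between the 2 effects was 0.38 ± 0.07 (QL test, BH-adjusted p = 7.13e-06). Stimulation raised Klf10 with the Batf3 vector by 0.31 ± 0.05 (QL test, BH-adjusted p = 1.27e-08), and with the control vector the change of -0.07 ± 0.05 was not called (QL test, BH-adjusted p = 0.157). These smaller changes of Klf10 moved with the scaling. With library sizes alone the change on stimulation was 0.09 with the Batf3 vector and not called (BH-adjusted p = 0.0535), -0.26 with the control vector and called (BH-adjusted p = 2.26e-06), and the vector's effect in non-stimulated cells was 0.15 and called (BH-adjusted p = 0.00943). The change of Klf10 on stimulation with the control vector was also called without control non-stimulated replicate 3 (-0.14, QL test, BH-adjusted p = 0.0107).

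**Figure D3:**
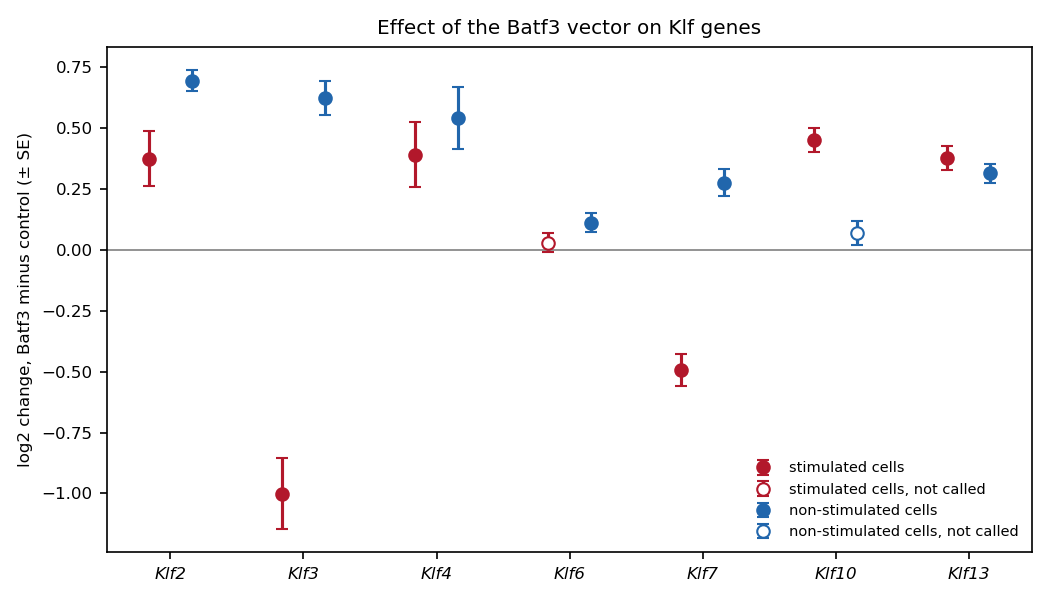
Log2 change between Batf3 and control cells (vertical axis) for each Krüppel-like factor gene in stimulated (red) and non-stimulated (blue) cells, with SE as bars and open circles where the gene was not called. Klf3 (-1.0 and 0.63) and Klf7 (-0.49 and 0.28) lie on opposite sides of 0, and Klf13 (0.38 and 0.31) lies above 0 in both cultures.

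Klf4 (ENSMUSG00000003032, chromosome 4, 55527143 to 55532466, minus strand) had the fewest reads of the 7 in non-stimulated cells, and its libraries separated by vector. It had 9.0, 7.34 and 8.85 CPM in Batf3 stimulated cells and 6.85, 6.48 and 5.86 CPM in control stimulated cells. In non-stimulated cells it had 8.99, 9.81 and 8.46 CPM with the Batf3 vector, against 6.11, 5.64 and 6.96 CPM with the control vector. The libraries of the 2 vectors did not overlap in either culture, whereas those of the 2 cultures overlapped with either vector.

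The vector changed Klf4 by 0.39 ± 0.14 in stimulated cells (QL test, BH-adjusted p = 0.0207) and by 0.54 ± 0.13 in non-stimulated cells (QL test, BH-adjusted p = 0.000329). The change in stimulated cells was not called by DESeq2's Wald test (0.38, BH-adjusted p = 0.0705). Nor was this change of Klf4 called without the filter on low counts (0.36, QL test, BH-adjusted p = 0.0579), or without any one of control stimulated replicates 2 (0.39) and 3 (0.32) and Batf3 stimulated replicates 1 (0.33) and 3 (0.35), for which the BH-adjusted p of edgeR's QL test was 0.0523, 0.117, 0.0959 and 0.0774. Stimulation gave -0.11 ± 0.12 with the Batf3 vector (QL test, BH-adjusted p = 0.387), where Klf4 was called with library sizes alone (-0.33, BH-adjusted p = 0.0118). With the control vector it gave 0.04 ± 0.14 (QL test, BH-adjusted p = 0.81), a sign that turned for Klf4 with library sizes alone (-0.15). The difference between the vector's effects on Klf4 in the 2 cultures, -0.15 ± 0.19, was not called (QL test, BH-adjusted p = 0.645). KLF4 is also a factor of monocytes, and the summed level of 6 myeloid markers was 8.16 to 10.1 CPM in Batf3 stimulated cells and 4.57 to 5.86 CPM in control stimulated cells. It was 1.72 to 3.33 CPM in Batf3 non-stimulated cells and 1.66 to 1.86 CPM in control non-stimulated cells. Lyz2 was at 0 throughout, and the part of these transcripts in the level of Klf4 was not tested.

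Klf6 (ENSMUSG00000000078, chromosome 13, 5861482 to 5870394, plus strand) varied least. It had 223, 225 and 212 CPM in Batf3 stimulated cells and 215, 219 and 213 CPM in control stimulated cells. In non-stimulated cells it had 207, 212 and 212 CPM with the Batf3 vector, against 194, 199 and 192 CPM with the control vector. The control non-stimulated libraries lay below the other 9, and the Batf3 stimulated libraries overlapped with both other groups.

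The change of Klf6 with the vector, 0.03 ± 0.04, was not called in stimulated cells (QL test, BH-adjusted p = 0.537), and in non-stimulated cells the vector raised it by 0.11 ± 0.04 (QL test, BH-adjusted p = 0.00346). The difference between these effects, -0.08 ± 0.06, was not called (QL test, BH-adjusted p = 0.221), and it was called for Klf6 without Batf3 stimulated replicate 2 (-0.13, QL test, BH-adjusted p = 0.0467). Klf6 was called higher on stimulation with the control vector (0.14 ± 0.04, QL test, BH-adjusted p = 5.82e-05), but the sign turned with library sizes alone (-0.04). With the Batf3 vector the change of 0.06 ± 0.04 was not called (QL test, BH-adjusted p = 0.0643). It was called higher without Batf3 stimulated replicate 3 (0.09, QL test, BH-adjusted p = 0.0142) and lower with library sizes alone (-0.15, BH-adjusted p = 1.78e-05), so no direction on stimulation is given for Klf6. Library sizes alone moved the median of all genes by -0.21 with the Batf3 vector and by -0.19 with the control vector in these comparisons, which is more than the changes of Klf6 themselves.

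Levels per kilobase of exon allow genes to be compared with each other. In stimulated cells Klf6 led with 50.1 CPM per kb under the Batf3 vector and 49.0 CPM per kb under the control vector, while Klf2 stood at 5.73 and 4.41 CPM per kb. In non-stimulated cells Klf2 led with 89.5 CPM per kb under the Batf3 vector and 55.3 CPM per kb under the control vector, and Klf6 was next with 48.0 and 44.4 CPM per kb. The order from the highest was Klf6, Klf10, Klf13, Klf2, Klf7, Klf4 and Klf3 in Batf3 stimulated cells, and Klf2 and Klf7 changed places in control stimulated cells. In both non-stimulated groups the order was Klf2, Klf6, Klf13, Klf10, Klf7, Klf3 and Klf4, and Klf3 and Klf7 changed places there when the longest transcript replaced the union of exons.

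**Figure D4:**
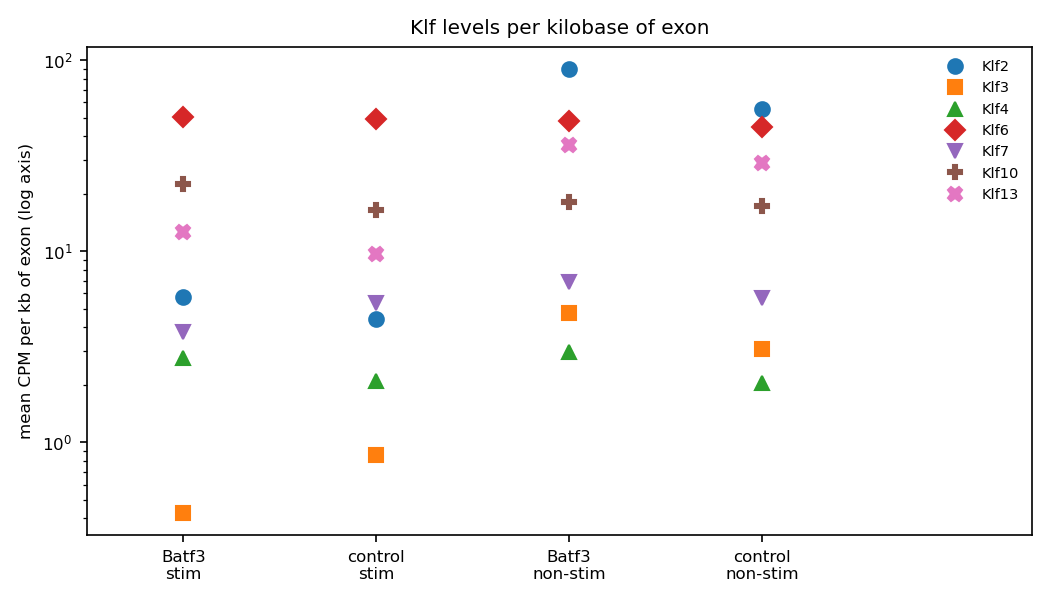
Mean level per kilobase of exon (CPM per kb, log axis) of the 7 Krüppel-like factor genes in the 4 groups. Klf2 stands at 5.73 and 4.41 in the stimulated groups, against 89.5 and 55.3 in the non-stimulated groups, where it is highest, and Klf6 lies between 44.4 and 50.1 in all 4.

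Of the other 19 genes of the Klf and Sp family, 9 passed the filter on low counts and the other 10 stayed at 1.03 CPM or below in every library. Among the 9, group means ran from 127 to 144 CPM for Sp1, 50.6 to 61.1 CPM for Sp2, 49.7 to 122 CPM for Sp3, 15.7 to 89.7 CPM for Sp4 and 27.3 to 52.9 CPM for Klf16. On stimulation 4 of these 9 were called higher and 5 lower with the Batf3 vector, and 3 were called higher and 5 lower with the control vector (median -0.21 and -0.17). Of all genes, 41.2% were called higher and 41.4% lower with the Batf3 vector, and 39.6% and 40.7% with the control vector. Klf9, a close relative of KLF13 and a glucocorticoid-inducible gene, ran opposite to Klf13. It averaged 47.9 ± 1.37 CPM in Batf3 stimulated and 47.9 ± 1.05 CPM in control stimulated cells, and 6.65 ± 0.0205 CPM in Batf3 non-stimulated and 6.70 ± 0.181 CPM in control non-stimulated cells. The log2 change of Klf9 on stimulation was 2.85 ± 0.10 with the Batf3 vector and 2.84 ± 0.10 with the control vector (QL test, BH-adjusted p = 1.86e-40 and 4.4e-40). Klf9 was not called under the vector in either culture. Klf8 (-2.04 and -2.06), Klf11 (-1.86 and -1.60), Sp3 (-1.17 and -1.27) and Sp4 (-2.47 and -2.21) were called lower on stimulation with the Batf3 and the control vector, and Klf16 higher (0.96 and 0.70). Sp7, which was nearly silent without stimulation, was called higher as well (3.54 and 3.97). Under the vector, 2 of the 9 were called higher and 0 lower in stimulated cells, and 3 were called higher and 1 lower in non-stimulated cells (median 0.11 and 0.10). Of all genes, 14.8% were called higher and 14.6% lower in stimulated cells, and 16.3% and 23.0% in non-stimulated cells. In non-stimulated cells Klf11 changed by 0.42 ± 0.09, Sp4 by 0.30 ± 0.05 and Klf16 by -0.25 ± 0.07.

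Of 9 trafficking genes linked to KLF2, all tested, 3 were called higher and 6 lower on stimulation with the Batf3 vector (median -1.21). With the control vector 2 were called higher and 6 lower (median -1.24), beside medians of 0.01 and -0.01 for all genes. The list pools S1pr1, which KLF2 activates, with Cxcr3, reported to be higher in T cells without KLF2. Its counts and medians thus have no single direction to be read for KLF2. Among all genes, 41.2% were called higher and 41.4% lower with the Batf3 vector, and 39.6% and 40.7% with the control vector, and these shares are the background of every count on stimulation below. S1pr1, the receptor that T cells need to leave lymphoid organs, had 3.57, 4.60 and 4.35 CPM in Batf3 stimulated cells and 3.05, 3.28 and 2.51 CPM in control stimulated cells. It had 272, 290.1 and 276 CPM in Batf3 non-stimulated cells, against 153, 157 and 160.3 CPM in control non-stimulated cells. All 4 groups of S1pr1 were thus apart and in the order of Klf2. The change of S1pr1 on stimulation was -6.06 ± 0.12 with the Batf3 vector and -5.73 ± 0.14 with the control vector (QL test, BH-adjusted p = 1.09e-63 and 4.3e-59). S1pr4, Itgb7, Il7r, Ccr7 and Cxcr3 were called lower as well. Cd69, whose product holds S1PR1 inside the cell, was called higher with the Batf3 (1.23 ± 0.04) and the control vector (1.16 ± 0.04), as was Plaur (2.94 and 1.93). Ccr3 was called higher with the Batf3 vector alone (1.22 ± 0.34).

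The vector raised 5 and lowered 1 of the 9 trafficking genes in stimulated cells (median 0.40), and raised 7 and lowered 2 in non-stimulated cells (median 0.37), beside medians of 0.00 and -0.02 for all genes. For this and each later count under the vector, the shares of all genes were 14.8% higher and 14.6% lower in stimulated cells and 16.3% higher and 23.0% lower in non-stimulated cells. S1pr1 changed by 0.50 ± 0.18 in stimulated cells (QL test, BH-adjusted p = 0.0154) and by 0.83 ± 0.04 in non-stimulated cells (QL test, BH-adjusted p = 9.36e-29). The first of these calls of S1pr1 was lost without control stimulated replicate 3 (0.39), Batf3 stimulated replicate 2 (0.42) or Batf3 stimulated replicate 3 (0.47), with BH-adjusted p = 0.124, 0.0984 and 0.055 in edgeR's QL test. Il7r, the IL-7 receptor chain of resting T cells, changed by 1.96 ± 0.16 and 1.87 ± 0.07, and Itgb7, an integrin chain for gut homing, by 0.73 ± 0.07 and 0.39 ± 0.03, in stimulated and non-stimulated cells. Cxcr3, a chemokine receptor reported to be higher in T cells without KLF2, changed by 0.40 ± 0.06 and 0.37 ± 0.05, and Cd69 by -0.56 ± 0.04 and -0.63 ± 0.04. Ccr3, whose highest group mean was 1.90 CPM, changed by 2.61 ± 0.50 in stimulated cells. Ccr7 changed by 0.13 in stimulated cells, not called, and by 0.11 in non-stimulated cells. The call for Ccr7 in non-stimulated cells was lost with DESeq2 (BH-adjusted p = 0.115) and without any one of the 6 non-stimulated libraries (0.07 to 0.12, QL test, BH-adjusted p of 0.0582 to 0.294).

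**Figure D5:**
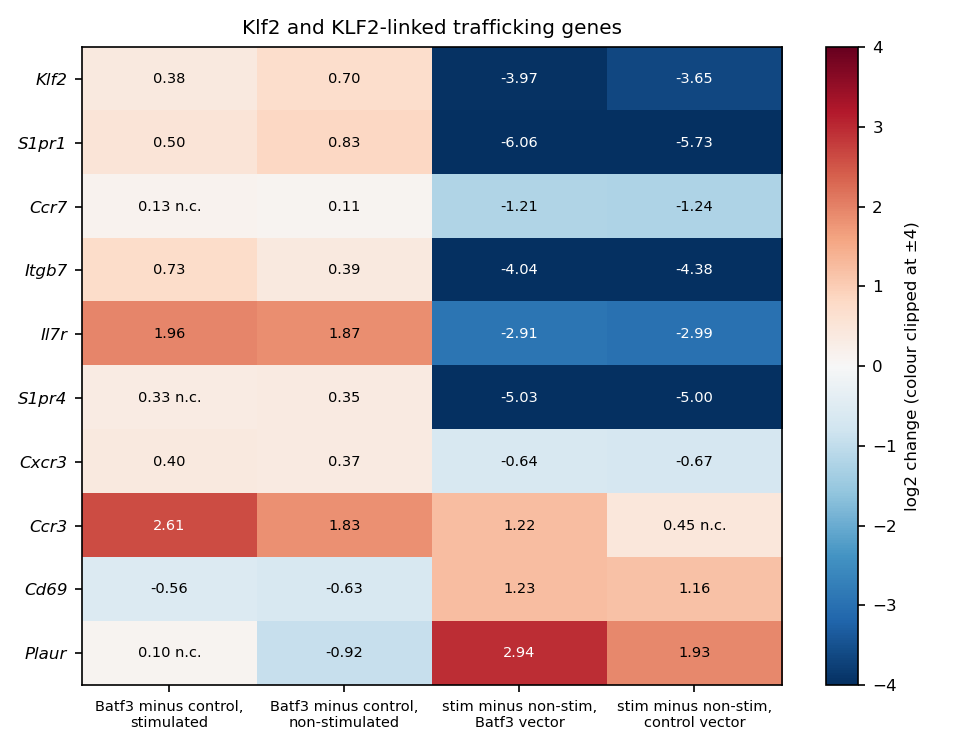
Log2 changes of Klf2 and of 9 trafficking genes linked to KLF2 (rows) in the 4 comparisons (columns), with red for higher and blue for lower and n.c. where the gene was not called. Klf2, S1pr1, Itgb7, Il7r and Cxcr3 are positive in both columns of Batf3 minus control and negative in both columns of stimulated minus non-stimulated cells. Cd69 has the opposite signs, and Ccr3 is 2.61 for Batf3 minus control in stimulated cells and 1.22 on stimulation with the Batf3 vector.

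Of 13 regulators known to act upstream of Klf2 and Klf4, 12 were tested, and all 12 were called lower on stimulation with either vector, where 41.4% (Batf3 vector) and 40.7% (control vector) of all genes were. Their median log2 change was -0.57 with the Batf3 and -0.54 with the control vector, beside 0.01 and -0.01 for all genes. This list pools activators with genes of other roles, such as Akt1, Akt2 and Trp53. The counts and medians of the 12 thus have no single direction to be read for Klf2 or Klf4. Map3k3, which encodes the MEKK3 kinase above ERK5, changed by -1.79 ± 0.07 with the Batf3 and -1.92 ± 0.08 with the control vector. Elf4, which encodes an activator of Klf2 and Klf4, changed by -1.54 ± 0.04 and -1.69 ± 0.05, and Foxo1, which encodes another activator of Klf2, by -0.52 ± 0.04 and -0.85 ± 0.05. The vector raised 2 of the 12 and lowered 1 in each culture. The lowered gene was Foxo3 in stimulated cells (-0.20 ± 0.07) and Trp53 in non-stimulated cells (-0.16 ± 0.04). Foxo1 changed by 0.52 ± 0.05 in stimulated and 0.19 ± 0.04 in non-stimulated cells, and Elf4 by 0.44 ± 0.05 and 0.29 ± 0.04. The medians were 0.00 and 0.03. Mef2a was not called under the vector, and Mef2c was left out by the filter on low counts.

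Calls for the 25 quiescence genes on stimulation were split between 10 higher and 13 lower with the Batf3 vector and 11 higher and 12 lower with the control vector (median -0.19 and -0.11). Cdkn1b, which encodes the cell cycle inhibitor p27, changed by -3.88 ± 0.11 with the Batf3 and -3.87 ± 0.12 with the control vector, much as Klf2 did, and Cdkn2c by -3.78 and -4.01. Cdkn1a, which encodes p21 and is a target of KLF4 and KLF6 in other cell types, was called higher instead (1.06 and 1.67). The largest rise in this list was that of Ndrg1, at 3.21 ± 0.05 with the Batf3 and 3.87 ± 0.06 with the control vector. The vector raised 9 and lowered 8 of the 25 in stimulated cells (median 0.10), and raised 17 and lowered 2 in non-stimulated cells (median 0.22, beside -0.02 for all genes). Runx1 changed by 1.29 ± 0.11 in stimulated and 1.69 ± 0.16 in non-stimulated cells, and Rbl2, which encodes the pocket protein p130, by 1.01 ± 0.11 and 0.51 ± 0.05. Tcf7, which encodes TCF-1, changed by -0.77 ± 0.06 and -0.20 ± 0.04.

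Reported targets were Lgals3, which KLF3 represses in the mouse, and Ccl5, the target of KLF13. Lgals3 averaged 807 ± 21.4 CPM in Batf3 stimulated and 279 ± 5.08 CPM in control stimulated cells, and 712 ± 7.57 CPM in Batf3 non-stimulated and 546 ± 14.4 CPM in control non-stimulated cells. The vector raised Lgals3 by 1.54 ± 0.04 in stimulated cells, where Klf3 was lower with the vector, and by 0.38 ± 0.03 in non-stimulated cells, where Klf3 was higher with it (QL test, BH-adjusted p = 3.33e-49 and 1.83e-19). Lgals3 was called lower on stimulation with the control vector (-0.97 ± 0.04), as Klf3 was. With the Batf3 vector it changed by 0.18 ± 0.03, a sign that turned with library sizes alone (-0.03). Ccl5 was higher with the vector in stimulated (0.47 ± 0.03) and non-stimulated cells (0.65 ± 0.04), and higher on stimulation with the Batf3 (1.37 ± 0.04) and the control vector (1.56 ± 0.04), whereas Klf13 was lower on stimulation.

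The TGF-beta pathway induces KLF10, and KLF10 acts upon it. Of 15 genes of the pathway, 8 were called higher and 0 lower with the vector in stimulated cells. In non-stimulated cells 9 were called higher and 1, Tgfb3 (-0.61 ± 0.12), lower. The medians were 0.16 and 0.36, beside 0.00 and -0.02 for all genes. The 15 hold repressors as well as mediators of the pathway, so these counts give no direction for its activity, which was not tested. Smad3, the receptor-activated transcription factor, changed by 0.67 ± 0.04 in stimulated and 0.57 ± 0.05 in non-stimulated cells. The repressor gene Ski (0.46 and 0.62) and Tgfbr3 (1.13 and 0.69), which encodes a co-receptor, were higher as well. Tgfbr2, which encodes the ligand-binding receptor chain, changed by 0.44 ± 0.05 in stimulated cells and by 0.02 ± 0.04, not called, in non-stimulated cells. On stimulation 8 of the 15 were called higher and 5 lower with the Batf3 vector, and 9 higher and 5 lower with the control vector (median 0.21 and 0.30).

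Among 12 cofactor genes of the family, 3 were called higher and 2 lower with the vector in stimulated cells, and 2 higher and 4 lower in non-stimulated cells (median 0.01 and -0.07). Ep300, which encodes the acetyltransferase p300, changed by 0.25 ± 0.05 and 0.36 ± 0.04. Of the cofactors called lower, Ctbp2 changed most in stimulated cells (-0.95 ± 0.25, with 2.00 and 3.89 CPM in Batf3 and control cells). Fhl3 did so in non-stimulated cells (-0.40 ± 0.08). On stimulation 5 were called higher and 6 lower with the Batf3 vector, and 5 higher and 7 lower with the control vector (median -0.14 and -0.23). Kat2b, which encodes the acetyltransferase PCAF, changed by -3.63 ± 0.12 and -3.43 ± 0.11. Of 8 ubiquitin ligases of KLF proteins, 1 was called higher and 1 lower with the vector in stimulated cells, and 2 higher and 1 lower in non-stimulated cells (median 0.00 and 0.04). On stimulation 2 of the ligases were called higher and 5 lower with the Batf3 vector, and 1 higher and 6 lower with the control vector (median -0.29 and -0.32). Nedd4l was lowest in both, at -1.59 ± 0.13 and -1.75 ± 0.13.

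The genes whose pattern was most like that of a member were found by the root mean square (RMS) difference of centred log2 CPM over the 12 libraries, among 8319 genes that averaged 10 CPM or more. For Klf2 they were Klhl6 (0.15), Cdkn1b (0.16) and Abca7 (0.17), and for Klf3 they were P2ry10 (0.25), Fbxl20 (0.26) and Fcho2 (0.30). For Klf13 they were Cdca2 (0.05), Elf4 (0.06) and Zfp217 (0.07), and for Klf4 they were Arntl (0.10), Ttll3 (0.11) and Ski (0.11). Klf7 was most like Slc17a9 (0.11), Fam160b1 (0.11) and Mink1 (0.12), Klf10 most like Nab1, Hcfc1 and Sgpl1 (0.07 each), and Klf6 most like Mia3 (0.03), Pmm2 (0.03) and Sp1 (0.04). Within the family, Klf6 and Klf10 had the closest patterns (0.16), and Klf2 was nearer to Klf3 (0.77) than to Klf13 (1.13). This order depends on the measure. By Pearson's r, which ignores the size of the changes, Klf2 was nearer to Klf13 (0.99) than to Klf3 (0.94), and Klf6 and Klf10 had an r of 0.50, over 12 libraries that share 4 groups. When Pearson's correlation replaced the RMS difference, only Arntl (for Klf4) and Nab1 (for Klf10) were named again.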

How the data were processed

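Per the labels, polyadenylated RNA from 100 ng of total RNA was made into stranded libraries over 15 PCR cycles. The authors deposited whole-number read counts per Ensembl gene. The submitters' processing notes name STAR 2.7, featureCounts and GRCm38. Which annotation was counted, on which strand and with what treatment of multimapped reads is not given in the sources used here. Of 55335 identifiers 55154 matched GENCODE M21, the source of coordinates and exon lengths.

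Counts were fitted in R 4.3.3 with edgeR 4.0.16 (filterByExpr, TMM, robust quasi-likelihood, 4 group means, 12 libraries, 8 residual degrees of freedom). Tests were two-sided, and Benjamini-Hochberg adjustment was over 15702 genes. Log2 changes are given ± SE from the fit, and CPM values hold no pseudocount. A count of 3 stood for 0.191 to 0.229 CPM in a library, and counts from PCR-amplified reads without molecular identifiers carry more than counting error. Libraries of a group differed by more than counting noise (chi-square per degree of freedom 1.46 to 3.16), so none was treated as a library deposited more than once, which does not make technical replicates independent. Same-numbered libraries of different groups did not deviate together (r from -0.138 to 0.0735 over 18 pairs, none over 0.1), so numbers were not used to pair libraries. The fit was also run on simulated counts, but the outcome is not given here and no call above rests on it.

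Named genes were the 7 members, 12 genes always named, other Klf and Sp genes of at least 1 CPM, and up to 3 called genes per list, direction and contrast, from which examples were taken. Some genes are withheld and not reported here. The members and lists were chosen with earlier results of these data known. Alternatives were library sizes alone, DESeq2 size factors, the Wald test of DESeq2 1.42.0, other filters, the 2 compared groups alone, a replicate block and leaving out each library. Promoters are RefSeq's (GRCm38.p6), 6 of 7 members matched, and motifs were sought on both strands of the 250 bases before the start.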

Additional observations from a re-analysis of the deposited data

Results flagged for a closer look

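The effect of the Batf3 vector differed between stimulated and non-stimulated cells for 4 members and 32 other named genes, by the test of the difference itself (the quasi-likelihood test of edgeR, Benjamini-Hochberg adjusted). Genes were named in part by their calls in this test, so the count of 32 is no result about the lists. Among all tested genes, 14.6% were called positive and 6.08% negative, with a median of 0.05 over all. The values below are the log2 effect in stimulated minus that in non-stimulated cells. Among the members they were -0.32 for Klf2, -1.63 for Klf3, -0.77 for Klf7 and 0.38 for Klf10. Batf3 itself gave -1.58, with 427 and 18.4 CPM in Batf3 and control stimulated cells, against 470.4 and 6.77 CPM in Batf3 and control non-stimulated cells.

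Of the trafficking genes, Itgb7 gave 0.35 and Plaur 1.02. Of the quiescence and upstream genes, Foxo1 gave 0.33, Rbl2 0.50, Peli1 0.26, Slfn2 0.17, Elf4 0.15, Foxp1 -0.23, Cdkn1a -0.60, Ndrg1 -0.66 and Tcf7 -0.57. Lgals3 gave 1.15 and Ccl5 -0.19. Of the TGF-beta genes, Tgfbr2 gave 0.42, Smad7 -0.45, Tgif1 -0.28 and Ski -0.15. Klf16 gave 0.26, the cofactor genes Hdac2 0.34, Kat2a 0.27, Hdac3 0.19 and Sin3b 0.19, and the ligase gene Siah1a -0.49. Of the marker genes, Cd8a gave 0.36, Cd3g 0.33, Cd3d 0.24, Zap70 0.23, Trac 0.21, Lck 0.12, Eomes 0.93 and Klrb1c 2.16. The calls of Klf2, Klf16, Plaur, Elf4, Siah1a, Sin3b, Hdac3, Ski and Lck were lost under at least 1 of the leave-one-out fits. Those of Klf16, Elf4, Hdac3 and Lck were also lost with library sizes alone, and these and that of Sin3b with no filter beyond 1 count. DESeq2's Wald test lost those of Klf16, Elf4 and Hdac3, and DESeq2 size factors those of Elf4 and Hdac3.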

How the results depend on the processing

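The total counts of called members and of called genes, both directions together, stayed within 1.5 times the reported ones under every alternative run, but some counts in 1 direction did not. With library sizes alone, 2397 genes rather than 3615 were lower with the vector in non-stimulated cells. On stimulation 0 members rather than 1 were higher with either vector and 5 rather than 3 lower with the control vector. With no filter beyond 1 count, 1524 genes rather than 2296 had a positive difference between the vector's effects. Without control stimulated replicate 2, 2 members rather than 4 were higher with the vector in stimulated cells, and without Batf3 stimulated replicate 3, 2 rather than 1 were higher on stimulation with the Batf3 vector. Changed calls of members stand beside their values above. With library sizes alone, signs turned for stimulated minus non-stimulated cells in Klf4 (-0.15, control vector), Klf6 (-0.0426, control vector, and -0.15, Batf3 vector), Lgals3 (-0.0331, Batf3 vector), Sp1 (-0.122, Batf3 vector) and Fbxw7 (-0.0843, Batf3 vector). Without 1 library, the Klf4 change with the control vector ranged from -0.0381 to 0.11, and the Klf13 difference between the vector's effects from -0.0183 to 0.0858. The same scaling put the share of called genes that were higher with the Batf3 vector at 65.6% in stimulated cells (2979 higher and 1561 lower), against 50.3% with TMM factors. In non-stimulated cells it gave 60.1% (3604 higher and 2397 lower), against 41.5%. With the replicate block, 4510 genes were called under the vector in stimulated and 6059 in non-stimulated cells, 12947 and 12561 on stimulation with the Batf3 and the control vector, and 3176 for the difference, and no member's call changed. Per kilobase with the longest transcript, Klf3 and Klf7 changed places in both non-stimulated groups. At the depth used, Klf4 and stimulated Klf2 and Klf3 rest on 49 to 153 counts a library, which limits changes that can be called in them.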
